A study of Mus musculus with 50 samples.

Results

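The comparison described here is Setdb1 loss in mouse embryonic stem cells (mESCs) that had no endogenous Dux gene and received no doxycycline. It holds 4 of the 50 mRNA libraries of the series, chosen by their labels: 2 labelled Setdb1-KO and 2 labelled control, all of strain TT2 with the background genotype Tet-on-Dux:Dux-KO and at doxycycline 0. Both groups carried the same Dux knockout and the same doxycycline-inducible Dux transgene, and the table also lists a MERVL-sfGFP reporter sequence. The Setdb1-KO libraries are named OHT and the control libraries NT, terms that the labels do not define. Every other Setdb1 loss used below is named in the same way, so an effect of the OHT condition cannot be told apart from Setdb1 loss. The labels name no separate clones or cultures, so the spread between replicate libraries may be technical. The p-values rest on that spread pooled over 16 groups of 2 Dux-null libraries, most of them of other genotypes or doxycycline doses. The other libraries used below are the Setdb1 losses at doxycycline 0 in 3 further Dux-null lines (Suv39h1/2;Setdb1-TKO against Suv39h1/2-DKO, G9a;Setdb1-DKO against G9a-KO, and G9a;Suv39h1/2;Setdb1-QKO against G9a;Suv39h1/2-TKO) and the Setdb1 loss in TT2 cells with Dux intact, each with 2 libraries a genotype.

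Setdb1 is a histone methyltransferase that, with its partner Atf7ip and the corepressor Trim28, places trimethylation on lysine 9 of histone H3 at retrotransposons and at silent genes. In mouse embryonic stem cells its removal is known to release endogenous retroviruses, germline genes and genes of differentiated tissues, and to raise the genes of the 2-cell embryo. Dux is the transcription factor that switches on the 2-cell genes and MERVL elements. The cells here lacked the endogenous Dux gene, and whether their Dux transgene was fully silent without doxycycline was not tested. Below, "without Dux" means without endogenous Dux.

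The 4 libraries did not fall apart by group alone. Each group held 1 library rich in Snhg RNAs, the spliced host transcripts of small nucleolar RNAs: Setdb1-KO replicate 2 and control replicate 1 had a mean log2(TPM + 1) of 4.50 and 4.24 over 15 Snhg genes, against 2.61 in Setdb1-KO replicate 1 and 2.705 in control replicate 2. The nuclear RNA Neat1 followed the same split, with 5.55 and 80.0 TPM (transcript abundance scaled to a fixed total per library) in Setdb1-KO replicates 1 and 2 and 54.7 and 5.78 TPM in control replicates 1 and 2. The imprinted gene Snrpn ran the opposite way, with 60.4 and 0.690 TPM in Setdb1-KO and 1.06 and 63.4 TPM in control. Across the 8 libraries of this line, those at doxycycline 0.2 included, Snrpn lay at 0.690 to 1.24 TPM in 4 libraries. In the other 4 it lay at 60.4 to 63.4 TPM, and 3 of the 4 low libraries were of the high-Snhg class. The low libraries were control replicate 1 and Setdb1-KO replicate 2 at both doses. Of these, control replicate 1 at doxycycline 0.2 was not of the high-Snhg class. In all, 345 genes were 1 log2 or more higher, and 8 lower, in the high-Snhg library of both groups, and 0 of these genes passed the test between Setdb1-KO and control. Where the split comes from was not tested, and the Setdb1-KO and control libraries were therefore also compared within each class. The 6 stem cell markers Pou5f1, Nanog, Sox2, Zfp42, Esrrb and Klf4 stood between 50.4 and 2277 TPM in all 4 libraries, and 8 fibroblast markers summed to 8.59 to 10.1 TPM in Setdb1-KO and 7.53 to 9.39 TPM in control, with Dcn at 0 in all 4.

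Setdb1 RNA had 16.3 and 28.8 TPM in Setdb1-KO, against 66.1 and 71.0 TPM in control. The groups did not overlap, and Setdb1 RNA remained detectable in both Setdb1-KO libraries. It fell by 1.61 on the log2(TPM + 1) scale (SE 0.311, adjusted p 0.00265, limma), a call that was lost without Setdb1-KO replicate 1 (change -1.22, adjusted p 0.0601). Values per gene do not tell intact Setdb1 RNA from RNA of a disrupted gene, so the remaining TPM do not measure intact Setdb1. Whether fewer cells kept Setdb1 or each cell held less of its RNA cannot be told apart in bulk libraries either. The other H3K9 methyltransferases of the study did not pass the test: Ehmt2, which encodes G9a, had 196 and 178 TPM in Setdb1-KO and 110 and 129 TPM in control (change 0.65, adjusted p 0.317). The Tet-on Dux transgene had 3.35 and 3.89 TPM in Setdb1-KO and 2.92 and 3.23 TPM in control, so reads were assigned to it without doxycycline in every library. At doxycycline 0.2 it reached 19.3 to 49.5 TPM in Setdb1-KO and 29.0 to 29.4 TPM in control. The MERVL-sfGFP reporter had 33.2 and 44.3 TPM in Setdb1-KO and 32.6 and 25.5 TPM in control, and was not tested.

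Without Dux, 231 of 13817 tested genes rose and 117 fell with Setdb1 loss, where called means an adjusted p below 0.05 and a change of at least 1 log2. These are 1.67% and 0.847% of the tested genes. The counts depend on the pooled spread: with the 4 libraries fitted alone 0 genes were called by limma (smallest adjusted p 0.172, with 1578 genes at an unadjusted p below 0.05). Leaving out Setdb1-KO replicate 2 gave 142 genes higher and leaving out control replicate 2 gave 148, and 101 of the 231 and 39 of the 117 were called in each of the 4 fits that left out 1 library. All 231 genes lay above 0 and all 117 below 0 in both the low-Snhg pair and the high-Snhg pair of libraries, which the calls on the mean of these pairs largely fix. At 1 log2 or more in both pairs were 164 of the genes called higher, of 185 such genes in all (1.34%), and 71 of the genes called lower, of 79 in all (0.572%). The median change of the genes called higher was 1.34 in the low-Snhg pair and 1.43 in the high-Snhg pair, and that of the genes called lower -1.25 and -1.22. With the class as a term of the fit, 271 genes (1.96%) were called higher and 140 (1.01%) lower, and these included all 231 and all 117. Without all high-Snhg libraries 171 genes were called higher and 97 lower, 141 and 64 of them shared with the 231 and 117. With only the high-Snhg library of each group 121 and 53 were called, 111 and 44 of them shared. In all 231 and 117 the 2 libraries of each group did not overlap with those of the other, which also held for 18.2% of all tested genes in the higher and 20.9% in the lower direction.

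**Figure D1:**
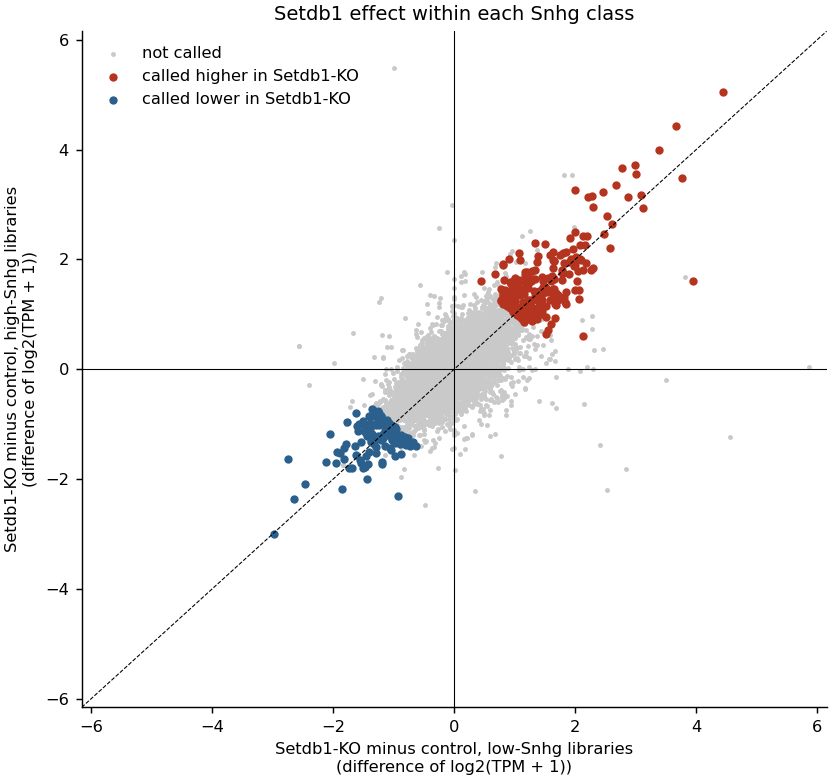
Each point is 1 of 13817 tested genes; the x axis is the difference of log2(TPM + 1) between Setdb1-KO replicate 1 and control replicate 2 (the low-Snhg libraries) and the y axis that between Setdb1-KO replicate 2 and control replicate 1 (the high-Snhg libraries), with equal values on the dashed line. The 231 genes called higher (red) and the 117 called lower (blue) were called on the mean of the 2 axes and lie above 0 and below 0 on both.

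The genes that rose were mostly little expressed in the control libraries. Their median mean TPM was 15.9 in Setdb1-KO and 4.47 in control, 58 of the 231 had a control mean under 1 TPM, and 76 one of 10 TPM or more. The change reached 2 log2 or more in 34 genes and 3 log2 or more in 10. The genes that fell had a median of 2.81 TPM in Setdb1-KO and 9.21 TPM in control, and 5 of them fell by 2 log2 or more. The median over all tested genes was -0.01 log2.

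Mep1b, a subunit of the metalloprotease meprin known from intestine and kidney, had 129 and 226 TPM in Setdb1-KO, against 9.54 and 9.28 TPM in control (log2 change 4.05, SE 0.318, adjusted p 1.29e-07). Mmp12, the macrophage elastase, had 12.3 and 18.2 TPM in Setdb1-KO and 0.204 and 0.271 TPM in control (log2 change 3.69, SE 0.255, adjusted p 2.65e-08). In both genes every Setdb1-KO library stood many fold above every control library. Gstp2, a glutathione transferase expressed in both groups, had 495 and 576 TPM in Setdb1-KO and 104 and 88.6 TPM in control (log2 change 2.46, SE 0.133, adjusted p 8.33e-10), with nearly the same change in the low-Snhg pair (2.47) and the high-Snhg pair (2.46). Cyp2b23, a cytochrome P450, had 79.7 and 145 TPM in Setdb1-KO and 10.53 and 10.78 TPM in control. Fbp2, the muscle fructose-bisphosphatase of gluconeogenesis, had 97.1 and 120 TPM in Setdb1-KO and 16.4 and 16.1 TPM in control. Platr5, a long non-coding RNA of pluripotent cells, had 54.1 and 54.4 TPM in Setdb1-KO and 6.27 and 5.34 TPM in control. These 3 genes rose by 3.22 (Cyp2b23), 2.66 (Fbp2) and 3.02 log2 (Platr5), all with non-overlapping groups. The remaining leading genes were Akr1c21, Mmp1b, Ceacam2, Clec2f, Plac9b, Cd59a and the germline genes Tex101, Syce3 and Mael, with changes between 2.39 and 3.63 log2. The single largest change among all 231 was that of the predicted gene 2010005H15Rik, with 29.7 and 75.2 TPM in Setdb1-KO and 1.29 and 0.418 TPM in control (log2 change 4.75). Gstp2, Cyp2b23, Plac9b, Clec2f and the Akr1c genes have close relatives in the genome, and reads shared with them could be split by the authors' estimation.

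**Figure D2:**
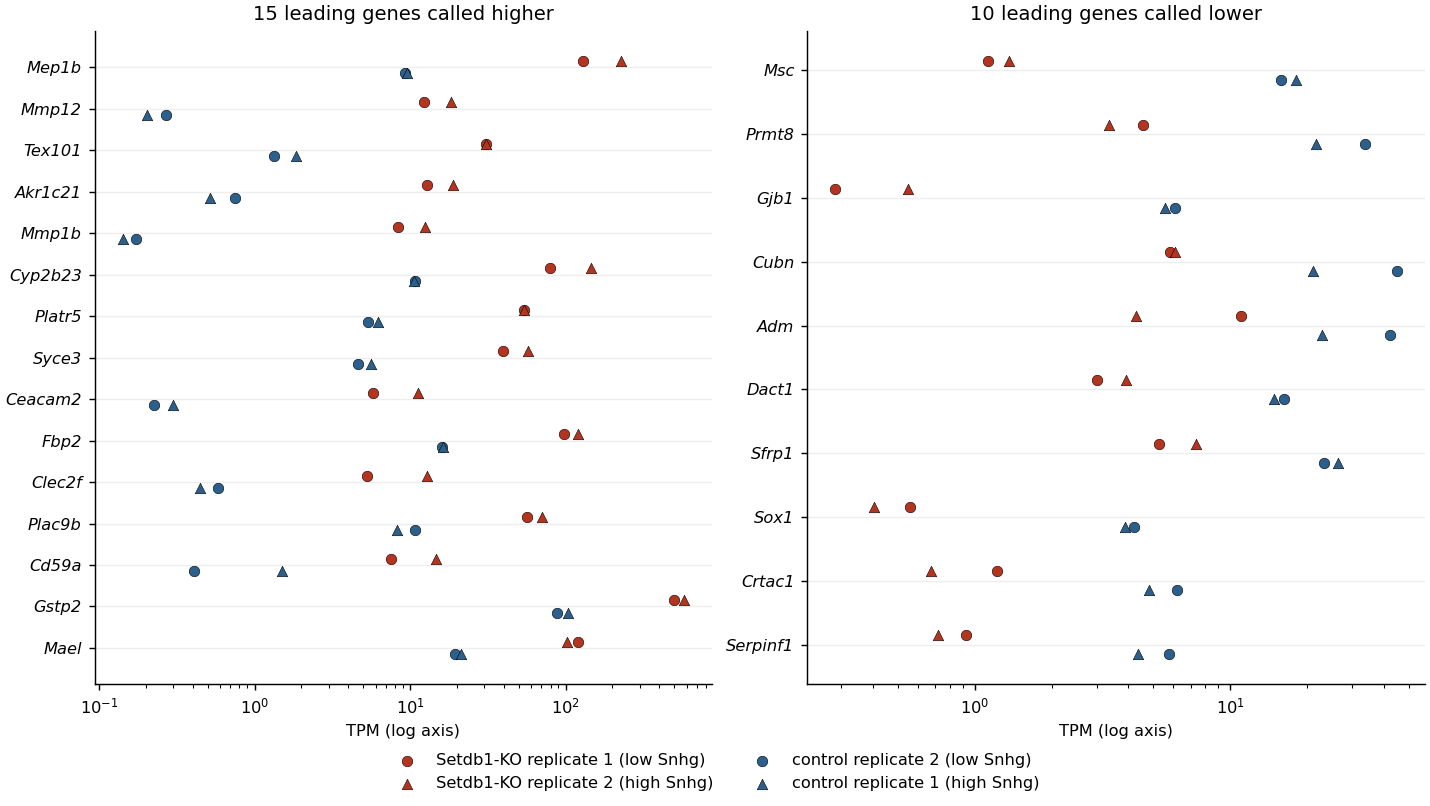
TPM in each library on a log axis for the 15 named genes with the largest rise (left panel) and the 10 with the largest fall (right panel), Setdb1-KO in red above control in blue, circles for low-Snhg and triangles for high-Snhg libraries. In every gene shown the 2 Setdb1-KO libraries lie on one side of the 2 control libraries, from Mep1b at 129 and 226 TPM against 9.54 and 9.28 TPM to Msc at 1.13 and 1.37 TPM against 18.02 and 15.81 TPM.

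Among the genes that fell, Msc, a basic helix-loop-helix repressor known from muscle precursors and B cells, led with 1.13 and 1.37 TPM in Setdb1-KO, against 18.02 and 15.81 TPM in control (log2 change -2.99, SE 0.25, adjusted p 2.36e-07). Prmt8, an arginine methyltransferase of neurons, had 4.56 and 3.37 TPM in Setdb1-KO and 21.58 and 33.64 TPM in control (log2 change -2.50, adjusted p 0.00288). The gap junction gene Gjb1 had 0.285 and 0.547 TPM in Setdb1-KO and 5.57 and 6.06 TPM in control (log2 change -2.27, adjusted p 5.07e-05). All 3 were low in both Setdb1-KO libraries and the groups did not overlap. Dact1 and Sfrp1, modulators of the Wnt pathway, were also among the 10. Dact1 had 3.00 and 3.92 TPM in Setdb1-KO and 14.8 and 16.3 TPM in control, and the secreted antagonist Sfrp1 had 5.29 and 7.35 TPM in Setdb1-KO and 26.4 and 23.2 TPM in control. Sox1, a neural progenitor transcription factor, had 0.558 and 0.404 TPM in Setdb1-KO and 3.86 and 4.20 TPM in control. Cubn, Adm, Crtac1 and Serpinf1 completed the 10, with changes between -2.20 and -1.73 log2. Prmt8 lost its call without control replicate 2 (change -2.20, adjusted p 0.0563). Adm lost its call without Setdb1-KO replicate 2 or control replicate 2 (changes -1.42 and -1.59, adjusted p 0.288 and 0.254).

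Germline genes made up the group with the most called members. Of 71 tested genes of germ cells and meiosis 27 rose (38.0%, beside 1.67% of all tested genes) and 1, Dnd1, fell (1.41%, beside 0.847%), and their median change was 0.66 log2, beside -0.01 over all tested genes. Tex101, a surface protein of male germ cells, had 30.8 and 30.8 TPM in Setdb1-KO, against 1.83 and 1.34 TPM in control (log2 change 3.63, SE 0.3, adjusted p 2.24e-07). Syce3 and Sycp3, parts of the synaptonemal complex that holds paired chromosomes together in meiosis, rose by 3.00 and 1.97 log2. Syce3 had 39.9 and 56.9 TPM in Setdb1-KO and 5.61 and 4.60 TPM in control, and Sycp3 had 58.7 and 93.0 TPM in Setdb1-KO and 26.0 and 12.6 TPM in control. For the piRNA pathway, which silences transposons in germ cells, Mael had 121 and 102 TPM in Setdb1-KO and 21.3 and 19.3 TPM in control (log2 change 2.39, adjusted p 2.65e-08), and Mov10l1, Tdrd12, Fkbp6, Piwil2, Gtsf1, Ddx4 and Tdrd9 rose by 1.03 to 1.91 log2, of which the calls of Ddx4 and Tdrd9 were lost without Setdb1-KO replicate 2 or control replicate 2. Stk31, a kinase-like protein of spermatocytes, had 47.6 and 51.9 TPM in Setdb1-KO and 8.80 and 10.1 TPM in control, and Slc25a31, the ADP/ATP carrier of germ cells, had 24.0 and 21.9 TPM in Setdb1-KO and 3.77 and 4.62 TPM in control. The members beyond the 5 largest were chosen for naming after their values were seen. Dnd1, an RNA-binding protein of primordial germ cells, had 11.2 and 9.13 TPM in Setdb1-KO and 21.6 and 22.8 TPM in control, a call lost without Setdb1-KO replicate 2. The Sycp3 call was lost without control replicate 2 (adjusted p 0.0524).

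Other germline genes did not pass the test. Stra8, the retinoic acid-induced gene of meiotic entry, was the most abundant member not called, with 137 and 174 TPM in Setdb1-KO and 256 and 183 TPM in control, lower in both Setdb1-KO libraries (log2 change -0.48, adjusted p 0.103). Sycp1, the transverse filament of the synaptonemal complex, had 8.47 and 29.8 TPM in Setdb1-KO and 4.14 and 1.39 TPM in control, a log2 change of 2.29 that did not pass the test (adjusted p 0.195) although the groups did not overlap. Sycp1 was lower in Setdb1-KO replicate 1 and control replicate 2, the low-Snhg libraries, and with the class as a term it was called higher (adjusted p 0.000946). The count of 27 was 28 with the Snhg class as a term, 21 without all high-Snhg libraries, 15 with only the high-Snhg library of each group, and 16 without control replicate 2. None of the 15 tested subunits and partners of PRC1.6, the Polycomb complex known to hold germline genes silent, was called by limma, and 1 of them had an unadjusted p below 0.05. Hdac1, the most abundant, had 346 and 371 TPM in Setdb1-KO and 358 and 366 TPM in control.

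PRC1.6 reaches its targets through the E-box CACGTG, read by Mga and Max, and through E2F6 sites with the core GCGGGA. Both motifs were searched on both strands in 300-base promoters (250 bases before to 50 after the start) of RefSeq on GRCm38.p6, for the 8356 tested genes with 1 entry each. The E-box was present in 10 of the 18 germline genes called higher that have such an entry (55.6%), in 4 of 33 germline genes not called higher (12.1%), in 9 of 110 other genes called higher (8.18%) and in 10.4% of all 8356 promoters. The E2F core was in 8 of the 18 (44.4%), in 15 of 33 (45.5%), in 23 of 110 (20.9%) and in 36.2% of all. The 2 motifs do not overlap in the sequences printed here. The next lines give the 250 bases before the start, 5′ to 3′ on the gene's strand, of 3 germline genes that hold both motifs, and then of Tex101, the germline gene with the largest rise, and Mmp1b, which hold neither in these windows; capitals mark the E-box CACGTG and the E2F core as GCGGGA or its reverse complement TCCCGC.
Sycp3 (chr10:88459337-88459586, plus strand): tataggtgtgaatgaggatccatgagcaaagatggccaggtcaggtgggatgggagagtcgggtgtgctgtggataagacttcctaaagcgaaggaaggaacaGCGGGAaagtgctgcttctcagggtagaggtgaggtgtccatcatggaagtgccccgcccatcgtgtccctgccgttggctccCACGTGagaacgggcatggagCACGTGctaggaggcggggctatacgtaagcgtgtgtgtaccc
Mael (chr1:166238745-166238994, minus strand): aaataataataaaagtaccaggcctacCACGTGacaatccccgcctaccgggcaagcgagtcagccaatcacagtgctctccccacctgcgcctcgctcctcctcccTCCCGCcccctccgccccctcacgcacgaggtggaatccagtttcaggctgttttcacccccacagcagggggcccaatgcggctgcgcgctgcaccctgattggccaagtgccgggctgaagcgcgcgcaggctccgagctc
Tex12 (chr9:50561269-50561518, minus strand): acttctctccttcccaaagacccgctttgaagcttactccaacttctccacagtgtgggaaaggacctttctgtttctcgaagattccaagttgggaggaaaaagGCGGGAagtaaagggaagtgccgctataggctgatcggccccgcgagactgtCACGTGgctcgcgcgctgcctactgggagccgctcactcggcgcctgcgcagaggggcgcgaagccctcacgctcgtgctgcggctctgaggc
Tex101 (chr7:24672051-24672300, minus strand): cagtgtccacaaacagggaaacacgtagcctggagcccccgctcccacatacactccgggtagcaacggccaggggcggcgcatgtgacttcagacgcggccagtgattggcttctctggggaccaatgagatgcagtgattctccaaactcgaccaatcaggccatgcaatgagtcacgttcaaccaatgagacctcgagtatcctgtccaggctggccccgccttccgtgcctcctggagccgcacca
Mmp1b (chr9:7388027-7388276, minus strand): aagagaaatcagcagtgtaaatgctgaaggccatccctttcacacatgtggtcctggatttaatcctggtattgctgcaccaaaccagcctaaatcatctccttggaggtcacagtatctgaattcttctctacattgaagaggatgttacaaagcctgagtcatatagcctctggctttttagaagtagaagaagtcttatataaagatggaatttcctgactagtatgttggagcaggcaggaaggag
Sycp3 carries 2 E-boxes close to its start, Mael 1 far from it and Tex12, a synaptonemal complex component, 1 in between. Tex12 had 10.8 and 20.6 TPM in Setdb1-KO and 4.606 and 1.603 TPM in control (log2 change 2.06, adjusted p 0.00175), a call lost without Setdb1-KO replicate 2 or control replicate 2 (adjusted p 0.0538 and 0.062). The 300-base windows held 15 CpG pairs in Sycp3, 24 in Mael, 26 in Tex12, 19 in Tex101 and 0 in Mmp1b. The median ratio of observed to expected CpG was 0.675 in the germline genes called higher, 0.504 in the other genes called higher and 0.765 over all promoters. A match is a description of the letters and not of binding.

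The 2-cell genes, by contrast, mostly did not pass the test in this Dux-null line. Of 57 tested genes of the 2-cell state or known to be linked to Dux 5 rose (8.77%, beside 1.67% of all genes). The median change was 0.05 log2, and none was called lower by limma or had an unadjusted p below 0.05 in that direction. With the Snhg class as a term 6 were called higher and 0 lower, beside 1.96% and 1.01% of all genes. In that fit Zscan4f, named after its values were seen, fell by 0.84 log2 (adjusted p 0.0115), short of the size for a call. Zscan4f had 2.97 and 5.21 TPM in Setdb1-KO and 9.78 and 6.31 TPM in control. In cells with Dux intact, fitted in a separate table of 18 libraries, 31 of the 57 were called higher and 1 lower with Setdb1 loss, where 4.12% of all genes were called higher and 2.16% lower, and the median was 1.31 log2. Of those 31 genes 3 were called higher without Dux, and over the 31 the median change was 0.14 log2 without Dux and 3.03 log2 with Dux. The 2 tables were normalised separately and no test was run between them. In the other Dux-null lines, Setdb1 loss called 3 of the 57 higher in the Suv39h1/2 line, 15 in the G9a line and 7 in the G9a;Suv39h1/2 line. There 1.18%, 3.73% and 2.36% of all genes were called higher, and the list medians were -0.025, 0.907 and 0.465 log2. By a limma test of the difference without the Snhg class as a term, the effect was called smaller here than in the G9a line for 1 of the 57. With the class as a term, the effect on Usp17lb was called smaller here than in the G9a and G9a;Suv39h1/2 lines (adjusted p 0.0368 and 0.0327). That on Zscan4f was called smaller than in the G9a line (adjusted p 0.00775) and not than in the G9a;Suv39h1/2 line. For Zscan4d and Obox4 no difference from either line was called in that fit.

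Zscan4d, a marker of the 2-cell state, had 5.697 and 12.996 TPM in Setdb1-KO, against 6.60 and 6.50 TPM in control without Dux. With Dux intact it had 224 and 248 TPM in Setdb1-KO and 6.87 and 6.86 TPM in control. Its log2 change was 0.36 (adjusted p 0.814) without Dux and 4.91 with Dux. Usp17lb, a deubiquitinase of the 2-cell stage, had 1.68 and 2.21 TPM in Setdb1-KO and 2.56 and 1.41 TPM in control without Dux, and 44.6 and 48.2 TPM in Setdb1-KO and 0.684 and 0.962 TPM in control with Dux intact. Thus neither gene separated the groups in this comparison. Obox4, a homeobox gene of the same stage, had 6.451 and 11.97 TPM in Setdb1-KO and 5.202 and 3.482 TPM in control without Dux, a log2 change of 0.90 that passed on p (0.0479 adjusted) and not on size. In the Dux-null G9a line these genes were called higher with Setdb1 loss, by 1.64 (Zscan4d), 2.21 (Usp17lb) and 2.09 log2 (Obox4). In the G9a;Suv39h1/2 line Usp17lb (1.83 log2) and Obox4 (1.06 log2) were called and Zscan4d (0.83 log2) was not. In the Suv39h1/2 line none of them was called. Zscan4d, Usp17lb and Obox4 were chosen after their values were seen.

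The 5 that rose without Dux were Cyp2b23, Duxbl2, Duxbl3, Pramel7 and Tbx3. Duxbl2 and Duxbl3 had identical values in every library, 10.6 and 15.3 TPM in Setdb1-KO and 4.212 and 2.703 TPM in control, so they count as 1 measurement that cannot be assigned to either gene. Pramel7, a PRAME-like gene of pluripotent cells, had 2.47 and 2.32 TPM in Setdb1-KO and 0.308 and 0.113 TPM in control (log2 change 1.49, adjusted p 0.0263). Tbx3, a T-box factor that also belongs to the pluripotency network, had 79.4 and 114 TPM in Setdb1-KO and 49.1 and 40.8 TPM in control (log2 change 1.07). The Duxbl, Pramel7 and Tbx3 calls were each lost when 1 library was left out, and the count of 5 fell to 1 without Setdb1-KO replicate 2 or without control replicate 2. The germline list behaved otherwise when set beside its Dux-intact values: of 33 members called higher with Dux intact 25 were called higher without Dux, with medians over the 33 of 1.35 log2 without Dux and 1.83 log2 with Dux.

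**Figure D3:**
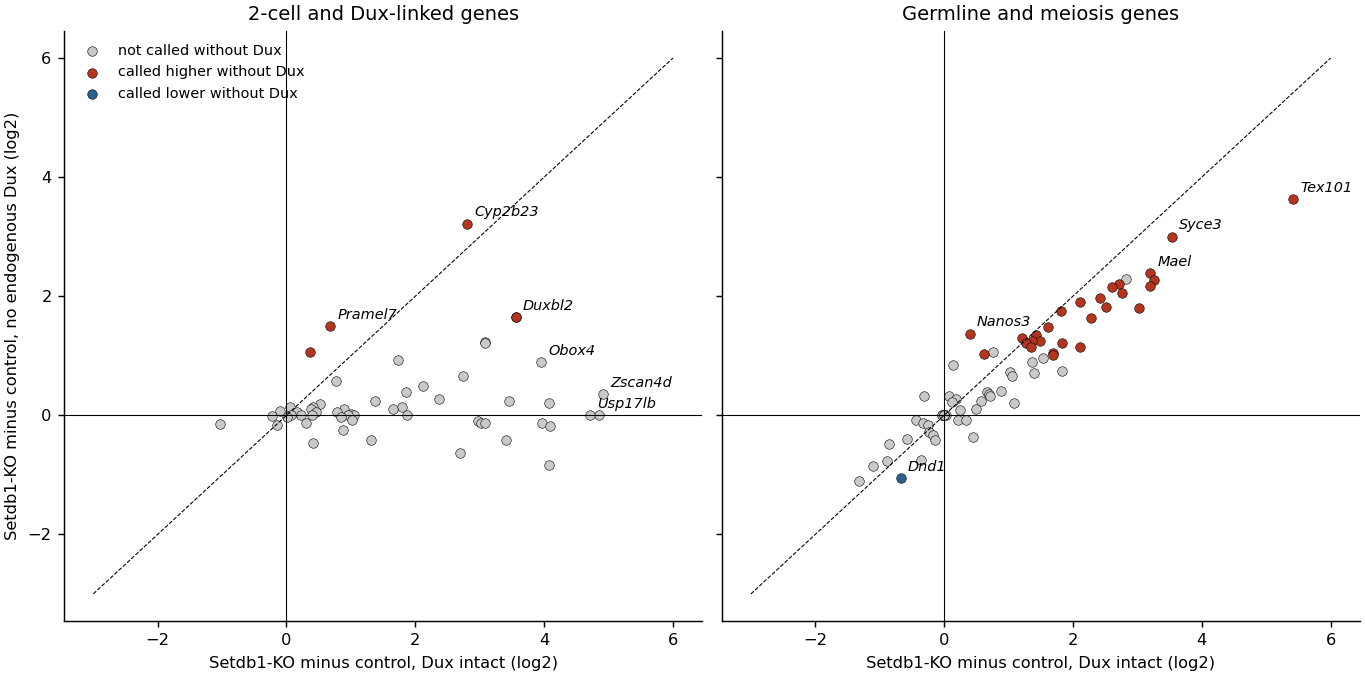
Each point is a gene of the 2-cell and Dux-linked list (left) or of the germline list (right), plotted by its Setdb1-KO minus control change on the log2(TPM + 1) scale with Dux intact (x axis) and without endogenous Dux (y axis), red where called higher without Dux and blue where called lower, with equal changes on the dashed line. Most 2-cell genes stay near 0 on the y axis while Zscan4d reaches 4.91 on the x axis, and the germline genes range from Dnd1 below 0 to Tex101 at 5.42 on the x axis and 3.63 on the y axis, with medians of 1.83 and 1.35 over the 33 called higher with Dux intact.

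Over all genes tested in both tables (13416), 176 were called higher both without and with Dux, which is 76.2% of the 231 called here and 31.7% of the 555 called with Dux intact. Called lower in both were 61, which is 56.0% of the 109 called here that were tested in both and 20.7% of 295. No gene was called in opposite directions. The 555 genes called higher with Dux intact had a median change of 0.77 log2 without Dux, beside 1.51 log2 with Dux, and 137 of the 176 genes called in both changed less without Dux. The Setdb1-KO and control libraries of the 2 settings are different samples.

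Several of the genes that rose lie side by side. Within 100000 bases of another gene called higher were 34 of the 215 called genes with a position in the GENCODE M21 annotation of GRCm38 (15.8%), beside 511 other tested genes (3.91%). Mmp12 (chr9:7344381-7369499) and Mmp1b (chr9:7368239-7388047) overlap at their ends, so their counts cannot be told apart there unless the authors' estimation used strand. Mmp1b, an interstitial collagenase, had 8.42 and 12.5 TPM in Setdb1-KO and 0.142 and 0.173 TPM in control (log2 change 3.28). Tex101 (chr7:24668007-24676675) has Lypd3 (chr7:24636550-24641118), another Ly6-domain surface protein, as a neighbour, with 2.78 and 3.11 TPM in Setdb1-KO and 1.03 and 0.832 TPM in control (log2 change 1.03). The lipid transport genes Apoe, Apoc1 and Apoc4 on chromosome 7 rose together. Apoe had 1631 and 1689 TPM in Setdb1-KO and 754 and 505 TPM in control (log2 change 1.43, adjusted p 9.57e-05), Apoc1 had 183 and 213 TPM in Setdb1-KO and 96.2 and 67.5 TPM in control, and Apoc4 had 1.53 and 3.27 TPM in Setdb1-KO and 0.222 TPM and 0 in control, a call lost in 3 of the 4 fits that left out 1 library. Further neighbours were Akr1c21 with Akr1e1 and Akr1c12 with Akr1c13 on chromosome 13, Fbp1 with Fbp2 on the same chromosome, Ltb4r1, Ltb4r2 and Ripk3 on chromosome 14, and Ccdc126, Fam221a and Stk31 on chromosome 6. Of these, Ripk3 lost its call without any 1 library, and the calls of Lypd3, Akr1e1, Akr1c12, Akr1c13, Ltb4r1, Ltb4r2 and Fam221a were each lost in 1 to 3 such fits. The neighbours were chosen for naming after their positions and values were seen.

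Genes known to be released in Setdb1-deficient cells from outside the germline were counted on a list of tissue-restricted genes. Of 19 tested members 5 rose (26.3%, beside 1.67% of all genes) and none was called lower (2 had an unadjusted p below 0.05 in that direction), with a median of 0.53 log2; this list was written with earlier results of these data known. The 5 were Mmp12, Akr1c21, Mmp1b, Akr1c12 and Akr1c13. Akr1c21, a steroid dehydrogenase of kidney, had 12.9 and 18.9 TPM in Setdb1-KO and 0.514 and 0.752 TPM in control (log2 change 3.36, adjusted p 8.16e-06). Cd209c, a lectin of the dendritic cell family, had 3.00 and 26.2 TPM in Setdb1-KO and 1.33 and 0.139 TPM in control, where the log2 change of 2.68 missed the test (adjusted p 0.0523) and the high-Snhg library was the higher one in each group. With the class as a term Cd209c was called higher (adjusted p 1.26e-05). Of 12 tested matrix metalloproteinases 3 rose (25%, beside 1.67% of all genes). They were Mmp12 and Mmp1b, already counted among the 5 above, and Mmp9. The gelatinase Mmp9 had 4.68 and 6.05 TPM in Setdb1-KO and 0.957 and 0.830 TPM in control.

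Most genes of the stem cell state and of early lineages did not pass the test. Of 33 pluripotency genes 2 rose (6.06%, beside 1.67% of all genes) and 1 fell (3.03%, beside 0.847%), with a median of 0.05 log2. At an adjusted p below 0.05 and any size there were 9 of the 33, beside 6.27% of all genes (3.63% higher and 2.65% lower). Among the 9 was Nanog, a core factor of naive pluripotency, with 276 and 267 TPM in Setdb1-KO and 480 and 426 TPM in control (log2 change -0.73, adjusted p 0.000149), named after its values were seen. Prdm14, a regulator of naive pluripotency and primordial germ cells, had 20.96 and 15.01 TPM in Setdb1-KO, against 54.4 and 61.4 TPM in control (log2 change -1.65, SE 0.263, adjusted p 0.000496), with the same direction in both class pairs (-1.51 and -1.79). Pou5f1, the core pluripotency factor, had 1779 and 2277 TPM in Setdb1-KO and 1994 and 1502 TPM in control, overlapping values. Tdh, the threonine dehydrogenase of mouse stem cells, had 177 and 150 TPM in Setdb1-KO and 68.1 and 80.9 TPM in control, a call lost without any 1 of the 4 libraries.

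Of 23 primed epiblast and germ layer genes 3 rose (13%) and 2 fell (8.70%), beside the 1.67% and 0.847% of all genes. Cdx1, a caudal homeobox factor of the primitive streak, had 18.7 and 19.8 TPM in Setdb1-KO and 4.17 and 3.67 TPM in control (log2 change 2.04, SE 0.261, adjusted p 4.8e-05). Otx2, the homeobox factor of the exit from naive pluripotency, had 182 and 136 TPM in Setdb1-KO and 41.9 and 61.2 TPM in control (log2 change 1.61, adjusted p 0.0187). Hand1, which also stands on the trophoblast list, had 7.69 and 7.27 TPM in Setdb1-KO and 2.33 and 1.47 TPM in control. These genes were higher in every Setdb1-KO library, while Sox1 and the Nodal inhibitor Lefty1 fell, Lefty1 to 20.7 and 23.8 TPM in Setdb1-KO against 49.2 and 58.9 TPM in control. The Otx2 call was lost without control replicate 1 or either Setdb1-KO library, and the Lefty1 call without any 1 library. Of 23 primitive endoderm genes 1 rose and 1 fell (4.35% each, beside 1.67% and 0.847% of all genes). Pdgfra rose (24.9 and 36.5 TPM in Setdb1-KO, 10.02 and 10.49 TPM in control). Its call was kept only without Setdb1-KO replicate 1 among the 4 fits that left out 1 library. The endocytic receptor Cubn fell (5.79 and 6.08 TPM in Setdb1-KO, 21.1 and 44.8 TPM in control). Of 20 trophoblast genes Hand1 rose and Esx1 fell (5% each, beside the same shares of all genes), with a median over the 20 of 0.53 log2. The Esx1 call was lost without Setdb1-KO replicate 2 or control replicate 2 (changes -1.09 and -1.12). Of 40 imprinted genes Nnat fell (2.5%, beside 0.847% of all genes), with 3.24 and 3.88 TPM in Setdb1-KO and 15.6 and 10.8 TPM in control (log2 change -1.63, adjusted p 0.00951). Its call was lost without Setdb1-KO replicate 1 or control replicate 1 (changes -1.52 and -1.38). Snrpn, split by library as given above, did not pass the test.

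The Setdb1 partner Atf7ip was the 1 called gene among 35 tested cofactors and other H3K9 methylation genes (2.86%, beside 1.67% of all genes called higher). It had 71.2 and 83.2 TPM in Setdb1-KO, against 28.8 and 34.7 TPM in control (log2 change 1.26, SE 0.267, adjusted p 0.00549). Atf7ip was also called higher in the other 3 Dux-null lines, and was not called with Dux intact. Its call was lost without Setdb1-KO replicate 2 or control replicate 1 (adjusted p 0.0736 and 0.0664). Trim28, the corepressor that brings Setdb1 to KRAB zinc finger proteins, had 673 and 638 TPM in Setdb1-KO and 697 and 799 TPM in control, lower in both Setdb1-KO libraries without passing the test (log2 change -0.19, adjusted p 0.779). Of 17 DNA methylation genes Dnmt3l and Mbd1 rose (11.8%, beside 1.67% of all genes). The Mbd1 call was lost without Setdb1-KO replicate 2 or control replicate 2 (changes 0.73 and 0.80). Dnmt3l, the cofactor of de novo methylation, had 558 and 483 TPM in Setdb1-KO and 163 and 239 TPM in control (log2 change 1.39, adjusted p 0.00204). Its change was 0.96 log2 in the Suv39h1/2 line (adjusted p 0.0392), 0.00 in the G9a line and 0.25 in the G9a;Suv39h1/2 line, and the difference from the mean of the 3 did not pass the test (adjusted p 0.394).

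Few cell cycle and stress genes reached a change of 1 log2. Of 26 cell cycle genes 3 fell (11.5%, beside 0.847% of all genes): Ccnd1 and Ccnd2, which encode D-type cyclins of G1, and the transcription factor Mycn. Ccnd1 had 4.77 and 4.51 TPM in Setdb1-KO, against 13.7 and 13.2 TPM in control (log2 change -1.36, SE 0.217, adjusted p 0.000521), and Mycn had 33.8 and 29.7 TPM in Setdb1-KO and 59.6 and 72.5 TPM in control. Ccnd2 and Mycn fell by under 1 log2 without Setdb1-KO replicate 2 or control replicate 2. Of 29 p53 target genes 3 rose (10.3%, beside 1.67% of all genes), Plk2, Btg2 and Trp53inp1, with a list median of 0.61 log2. Of the 29, 26 had a change above 0, and at an adjusted p below 0.05 and any size there were 12, beside the 6.27% of all genes. All 3 calls were lost without Setdb1-KO replicate 2 and without control replicate 2. Of 23 genes of the ATF4 stress response the glutathione-degrading enzyme Chac1 and the mitochondrial folate enzyme Mthfd2 fell (8.70%, beside 0.847%), with 6 of the 23 at an adjusted p below 0.05 and any size and a list median of -0.38 log2. Both calls were lost without control replicate 2. Mthfd2 had 46.1 and 47.3 TPM in Setdb1-KO and 92.2 and 111 TPM in control. Of 29 interferon and nucleic acid sensing genes Tap1 and Ddx58 rose (6.9%, beside 1.67% of all genes) and Ifitm1 fell (3.45%, beside 0.847%). The Ddx58 call was lost in 3 of the 4 fits that left out 1 library. Ifitm1 had 25.0 and 24.2 TPM in Setdb1-KO and 82.0 and 69.1 TPM in control, and Tap1, the peptide transporter of antigen presentation, had 14.8 and 17.2 TPM in Setdb1-KO and 5.72 and 6.58 TPM in control.

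The remaining families gave few calls or none. Of 332 Zfp zinc finger genes 1 rose, a share of 0.301% and below the 1.67% of all genes. It was Zfp951, with 25.7 and 41.0 TPM in Setdb1-KO and 8.74 and 6.70 TPM in control. Its call was lost without Setdb1-KO replicate 2 (change 1.62). Of 85 cytosolic ribosomal protein genes 1 rose, a share of 1.18% and likewise below the 1.67% of all genes. This was Rpl39l, the paralog of Rpl39 known from testis. It had 385 and 321 TPM in Setdb1-KO and 127 and 152 TPM in control (log2 change 1.33, adjusted p 6.36e-05). Of 25 cytochrome P450 genes Cyp2b23 rose, and of 19 serpins Serpine2 rose while Serpinf1 and Serpini1 fell; the Serpine2 and Serpini1 calls were each lost with 1 library left out. None of 31 proteasome, 28 nuclear RNA and Snhg, 8 protocadherin, 11 fibroblast and 12 Hox genes was called by limma, with an unadjusted p below 0.05 in 0, 0, 0, 1 and 5 of them in that order. The nuclear RNA list summed to 466 and 1135 TPM in Setdb1-KO and 1070 and 453 TPM in control, and its part in the other results was measured only through the class comparisons above.

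**Figure D4:**
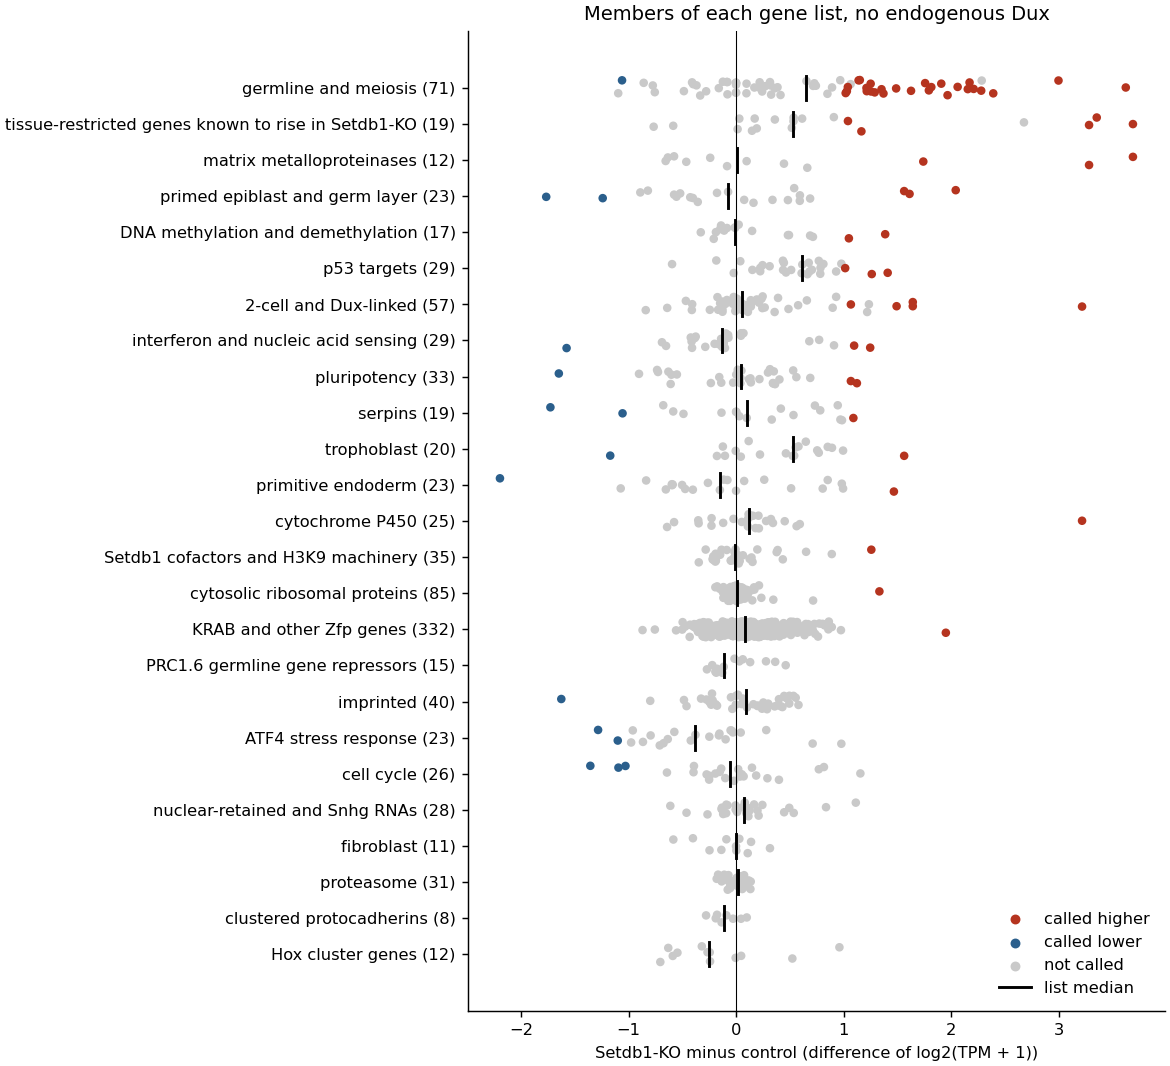
Each point is a tested member of a gene list, with the number tested in parentheses, plotted by its Setdb1-KO minus control change on the log2(TPM + 1) scale and coloured by its call, with a black bar at the list's median. The germline list at the top has 27 of 71 members called higher, and the PRC1.6, proteasome, protocadherin and Hox lists have no called member.

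In the 3 other Dux-null lines, whose libraries are not shared with this comparison, nearly all genes called higher had the same sign. The calls are not independent of those here, as all lines were tested in the same fit with a pooled standard error per gene. A gene of small spread is thus more easily called in every line. Of the 231 genes called higher here, 230 had the same sign in the Suv39h1/2 line, 225 in the G9a line and 226 in the G9a;Suv39h1/2 line. Called higher there as well were 127 (55.0%), 136 (58.9%) and 125 (54.1%), where 1.18%, 3.73% and 2.36% of all tested genes were called higher. Of the 117 genes called lower here 38, 41 and 49 were called lower in those lines, beside 0.463%, 1.22% and 0.955% of all genes, and none was called in the opposite direction. Called higher in all 4 Dux-null lines were 75 genes and lower 17, and 72 and 10 of these were also called with Dux intact. Among the 72 were Cyp2b23, Fbp2, Akr1c21, Ceacam2, Clec2f, Ddx4 and Fkbp6. Of the 231, 53 were called higher in none of the 3 lines.

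Tests of the difference between lines found few genes. Against the Suv39h1/2 line no gene differed in the size of its Setdb1 effect by limma, with 231 genes at an unadjusted p below 0.05 and a smallest adjusted p of 0.161. Against the G9a line the effect was higher here in 12 genes (0.0868%) and lower in 76 (0.55%), and against the G9a;Suv39h1/2 line in 8 (0.0579%) and 54 (0.391%). In the G9a line 1 of the 2 G9a;Setdb1-DKO libraries and neither G9a-KO library was of the high-Snhg class, so class and Setdb1 loss are partly confounded there. With the class as a term, the effect was higher here in 37 genes (0.268%) and lower in 95 (0.688%) against the G9a line, higher in 17 (0.123%) and lower in 68 (0.492%) against the G9a;Suv39h1/2 line, and lower in 1 (0.00724%) against the Suv39h1/2 line. Of the 53 genes called in none of the 3 lines, 3 had a higher effect here against at least 1 line without the class term, and 7 with it. Against the mean of the 3 lines no gene was called higher here and 27 lower (0.195%), with 588 genes at an unadjusted p below 0.05, and with the class as a term 5 were higher (0.0362%) and 36 lower (0.261%).

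The 5 genes with the largest difference in that test were Reg1, Cyp4a12b, Mup3, Clec2g and Asb12. None of them passed the test in this comparison. With Dux intact, where G9a was not removed, Mup3, Clec2g and Asb12 were called higher with Setdb1 loss, and Reg1 and Cyp4a12b were not. Reg1, a pancreatic secreted protein, had 0.544 and 0.132 TPM in Setdb1-KO and 0.117 and 0.229 TPM in control here, while its mean was 43.9 TPM in G9a;Setdb1-DKO against 0.780 TPM in G9a-KO, and 47.8 TPM in the quadruple knockout against 0.983 TPM in G9a;Suv39h1/2-TKO. Mup3, a major urinary protein gene of liver, had 0.324 TPM and 0 in Setdb1-KO and 0 in both control libraries here, and means of 20.9 TPM in G9a;Setdb1-DKO against 0.0986 TPM in G9a-KO. Clec2g was at 0.741 and 1.22 TPM in Setdb1-KO and 0.0912 TPM and 0 in control here, and at 28.1 TPM in G9a;Setdb1-DKO against 0.612 TPM in G9a-KO. These genes were low in all 4 libraries of this comparison. With a pseudocount of 0.1 all 5 differences from the mean of the 3 lines kept their direction and lost their call, with adjusted p of 0.146 (Reg1), 0.0814 (Cyp4a12b) and 0.0672 (Mup3), and of 1 for Clec2g and Asb12. Against each G9a-deficient line alone, Reg1, Cyp4a12b and Mup3 stayed called at that pseudocount, with adjusted p between 0.00259 and 0.0389.

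In the other direction, Fbp2 was called as rising more here than in both G9a-deficient lines, by 1.33 log2 against the G9a line (adjusted p 0.039) and 1.41 log2 against the G9a;Suv39h1/2 line (adjusted p 0.033). Its mean was 58.9 TPM in G9a;Setdb1-DKO against 23.2 TPM in G9a-KO, and 108 TPM in Setdb1-KO against 16.2 TPM in control here. Cdx1 rose more here than in the G9a;Suv39h1/2 line, by 1.99 log2 (adjusted p 0.0114). Akr1c12 and Akr1c13 rose more here than in the G9a line, by 1.53 and 1.61 log2 (adjusted p 0.00906 and 0.019); Akr1c13 had a mean of 3.70 TPM in Setdb1-KO and 1.29 TPM in control here, and 37.3 TPM in G9a;Setdb1-DKO and 55.8 TPM in G9a-KO, so it was already high in the G9a-KO libraries. With a pseudocount of 0.1 the Fbp2 and Cdx1 differences lost their calls (adjusted p 0.0724 and 0.0716 for Fbp2, 0.511 for Cdx1), and those of Akr1c12 and Akr1c13 against the G9a line did not (adjusted p 0.00259 and 0.0274). These genes, too, were chosen for naming after their values were seen.

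**Figure D5:**
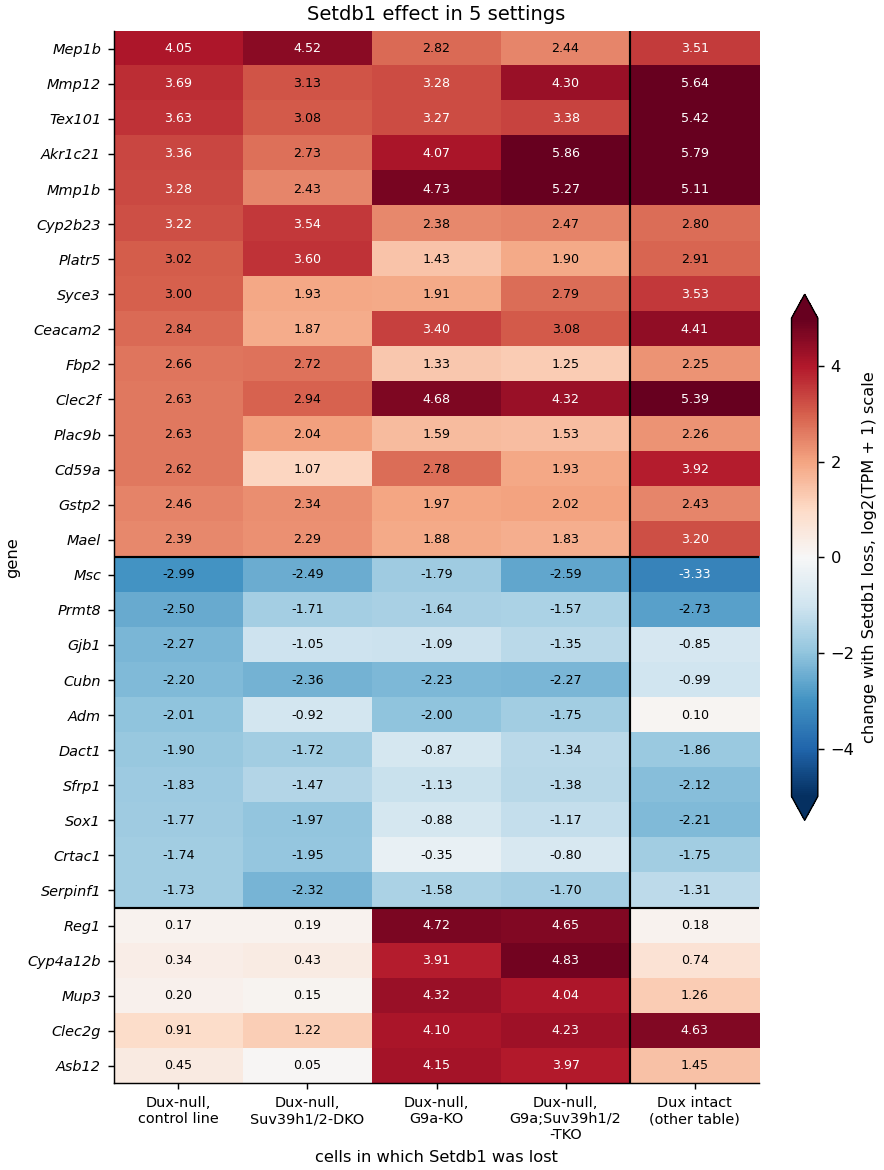
Change with Setdb1 loss on the log2(TPM + 1) scale for the 15 genes with the largest rise, the 10 with the largest fall and the 5 that differed most from the other lines, in this comparison (first column), in the 3 other Dux-null lines and with Dux intact; colours run from -5 (blue) to 5 (red). The leading genes keep their sign in the 4 Dux-null lines, and Reg1, at 0.17 in the first column, reaches 4.72 and 4.65 in the G9a and G9a;Suv39h1/2 lines.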

How the data were processed

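PolyA RNA from the cells was made into stranded mRNA libraries and sequenced in pairs, per the labels' protocols. The deposited values are TPM per gene (transcript abundance scaled to a fixed total per library), made by the authors on mm10. The submitters' processing notes name RSEM 1.3.1, Bowtie2 2.3.4.1, SAMtools 1.9 and STAR 2.7.10b, without saying which made the table. The labels call the columns raw counts, but the values are fractional and were used as TPM. TPM keep no read depth, so depth is unknown; 11977 to 12464 of the tested genes reached 1 TPM in the 4 libraries. Groups were taken from the labels.

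The Dux-null table holds 32 libraries, and the 13817 genes that reached 1 TPM in 2 or more of them were tested on log2(TPM + 1), a scale that understates changes of low genes, with limma 3.58.1 in R 4.3.3, 1 coefficient for each of 16 groups, 16 residual degrees of freedom and Benjamini-Hochberg adjustment over all genes. A call needed an adjusted p below 0.05 and 1 log2 or more. The scripts were tested on simulated data. The Dux-intact table of 18 libraries was fitted alone (13862 genes). The transgene rows were not tested. The gene lists and the comparison were chosen with earlier results of these data known. Named are the targeted genes, the 15 genes called higher and 10 called lower with the largest changes (predicted names left out), up to 5 called and 2 abundant uncalled members of a list, and the 5 largest differences between lines; others are marked. Alternatives were another pseudocount (0.1), no filter, median-ratio scaling, replicate or Snhg class terms, fewer libraries and each library left out.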

Additional observations from a re-analysis of the deposited data

Results flagged for a closer look

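In 5 genes the effect of Setdb1 loss was smaller in this comparison than the mean effect in the 3 other Dux-null lines, by a limma test of the difference. The difference in log2 change, this line minus the mean of the 3, was -3.01 for Reg1 (adjusted p 2.24e-05), -2.71 for Cyp4a12b, -2.63 for Mup3, -2.27 for Clec2g (adjusted p 0.0075) and -2.27 for Asb12. In both G9a-deficient lines these genes rose by 3.91 to 4.83 log2. In the Suv39h1/2 line their changes were between 0.05 and 1.22 log2, beside 0.17 to 0.91 log2 here. With Dux intact, Mup3, Clec2g and Asb12 were called higher with Setdb1 loss, and Reg1 and Cyp4a12b were not. Cyp4a12b, a fatty acid hydroxylase of the cytochrome P450 family, had 0.508 and 0.259 TPM in Setdb1-KO and 0.116 and 0.0565 TPM in control here, and means of 49.0 TPM in the quadruple knockout against 0.781 TPM in G9a;Suv39h1/2-TKO. Asb12 had 0.854 and 0.0684 TPM in Setdb1-KO and 0 and 0.0596 TPM in control here. The 5 genes kept an adjusted p below 0.05 with the Snhg class as a term (2.57e-08 to 0.00108) and lost their calls with a pseudocount of 0.1 (adjusted p 0.0672 to 1), where the direction was kept.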

How the results depend on the processing

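The 231 genes called higher became 307 with a pseudocount of 0.1 (215 shared with the 231), 212 without a filter, 239 with median-ratio scaling, 271 with the Snhg class as a term, 213 with the 16 doxycycline-free libraries alone, 171 without all high-Snhg libraries (141 shared) and 121 with only the high-Snhg library of each group (111 shared); the 117 called lower became 195 (111 shared), 106, 108, 140, 106, 97 (64 shared) and 53 (44 shared) in the same order. With the 4 libraries alone, 0 genes were called in either direction by limma; 2 residual degrees of freedom then remain, the smallest adjusted p was 0.172, and 1578 genes, 346 of them called in the fit of 32 libraries, had an unadjusted p below 0.05. Leaving out 1 library gave 142 to 278 genes higher and 101 to 105 lower, the lowest being 142 without Setdb1-KO replicate 2 and 148 without control replicate 2. A lone library was assumed to vary like the other groups. No named gene that was called reversed its direction. In the fits that left out 1 library this was fixed in advance, as the groups did not overlap in any called gene.

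The replicate block, a term for the replicate number, gave 256 higher and 132 lower, including all 231 and all 117. The numbers do not pair these libraries: deviations from the group means correlated at -0.647 between libraries of the same number, and the crossed pairing, chosen after seeing the data, gave 242 and 122.

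For the differences between lines, a pseudocount of 0.1 left 36 genes lower against the G9a line, 22 lower and 5 higher against the G9a;Suv39h1/2 line, and 4 lower and 1 higher against the mean of 3. With the Snhg class as a term, 37 were higher against the G9a line, 17 against the G9a;Suv39h1/2 line and 5 against the mean, and 1 was lower against the Suv39h1/2 line. The cause was not tested. TPM keep no depth, which limits what can be said of genes under 1 TPM.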

Other observations

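Among the genes called higher were 3 of the 4 Id genes, which encode inhibitors of basic helix-loop-helix factors and are known targets of BMP signalling, and the ligand Bmp4; they were picked after their values were seen and stand on no list. Id1 had 137 and 146 TPM in Setdb1-KO, against 60.1 and 53.6 TPM in control (log2 change 1.304, adjusted p 0.000956, limma). Id3 had 16.8 and 24.7 TPM in Setdb1-KO and 5.93 and 3.49 TPM in control (log2 change 1.94), and Id2 had 15.5 and 14.7 TPM in Setdb1-KO and 5.85 and 5.18 TPM in control (log2 change 1.31). In all 3 both Setdb1-KO libraries stood above both control libraries, while Id4 had 2.41 and 2.21 TPM in Setdb1-KO and 3.29 and 2.40 TPM in control and did not pass the test (adjusted p 0.822). Bmp4 had 99.4 and 118 TPM in Setdb1-KO and 53.2 and 48.0 TPM in control (log2 change 1.08, adjusted p 0.0364), a call lost without any 1 library. The Id2 call was lost without control replicate 2 and the Id3 call without control replicate 2 or Setdb1-KO replicate 2. With Dux intact the log2 changes were 0.71 for Id1, 1.51 for Id3, 0.14 for Id2 and -0.02 for Bmp4.

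Of the 13280 tested genes with a position 215 were called higher, and these were spread over all chromosomes. Their shares of the tested genes with a position ran from 0.223% on chromosome 19 (1 of 448) to 4.05% on chromosome 14 (19 of 469). Over all tested genes, with or without a position, the share was 1.67%.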
